A study of Homo sapiens with 20 samples.

Results

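The regions described here carried a peak of acetylated histone H3 lysine 27 (H3K27ac) more often in untreated than in oxaliplatin-treated HCT-116 cells, a human colorectal cancer line. The peak lists of 16 ChIP-seq libraries were merged on chromosomes 1 to 22 and X wherever peaks shared at least 1 bp. Of 58859 merged regions, 729 were chosen by a difference in presence, with a peak in at least 4 more of the 8 untreated (UNT) than of the 8 oxaliplatin (OXPT) libraries. A difference of 4 is possible only for a region called in 4 to 12 libraries. There were 15695 such regions, named eligible regions below, and the rule kept 4.64% of them. The same rule turned round, at least 4 more OXPT than UNT libraries, kept 554 regions (3.53%), named OXPT-favoring regions. Since the rule used the treatment contrast, every difference between UNT and OXPT among the 729 regions is a description and was not tested.

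Cells were wild type (WT) or knockout (KO) for FBXW7, a ubiquitin ligase subunit that marks other proteins for degradation. All cells, controls included, were transfected for 48 h with enzymatically prepared small interfering RNAs, either a control pool (esiCT) or a pool against the class IIa histone deacetylase HDAC4 (esiHDAC4). OXPT groups received 50 µM oxaliplatin, a platinum drug that crosslinks DNA, in the last 24 h, and UNT groups received none. Each of the 8 combinations had 2 libraries, replicates A and B. The study's methods call the replicates biological, while the labels say that 3 experiments were combined, and how the letters relate to these was not stated. Whether the KO cells were 1 clone was not stated either.

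Active promoters and enhancers carry H3K27ac on the nucleosomes that flank them, and the mark is lost when acetyltransferases leave or deacetylases act. Long clusters of strongly acetylated enhancers are called super-enhancers (SEs). In proliferating cells, promoters of genes for G2 phase and mitosis are active late in the cycle and are repressed after DNA damage, when p53 raises the cyclin-dependent kinase inhibitor p21 and a repressor complex binds the cell cycle homology region (CHR) of those promoters. The CCAAT box in many of them is bound by the activator NF-Y. Genes that p53 activates directly, such as MDM2 and CDKN1A, carry a p53 motif instead. This is background and was not measured here.

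Promoter sequences beside 2 of the regions and windows inside 3 others are given first. PLK1, the kinase that drives entry into mitosis, and BORA, its activator, lay at 2 of the 19 regions with a difference of 6 libraries. Their RefSeq promoters (GRCh38.p14, the bases before the annotated start, each read in the direction of its gene) lie at chr16:23678639-23678888 and chr13:72727673-72727922, both on the plus strand. Capitals mark the CCAAT box (CCAAT) and the CHR element (TTTGAA) on either strand.
PLK1: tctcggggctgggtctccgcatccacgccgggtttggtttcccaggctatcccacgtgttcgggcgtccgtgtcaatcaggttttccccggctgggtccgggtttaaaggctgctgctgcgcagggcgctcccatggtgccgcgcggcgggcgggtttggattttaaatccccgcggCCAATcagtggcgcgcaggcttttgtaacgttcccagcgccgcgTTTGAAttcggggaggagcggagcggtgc
BORA: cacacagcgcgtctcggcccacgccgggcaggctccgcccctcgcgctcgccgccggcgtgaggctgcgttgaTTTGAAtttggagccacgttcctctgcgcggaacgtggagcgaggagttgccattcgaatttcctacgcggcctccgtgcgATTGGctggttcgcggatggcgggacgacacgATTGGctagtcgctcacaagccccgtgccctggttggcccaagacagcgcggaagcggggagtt
The PLK1 promoter held 1 CCAAT box and 1 CHR element, and the BORA promoter held 2 CCAAT boxes and 1 CHR element. Both promoters end just before the called region begins, so these matches lie outside the regions. The windows around the highest UNT summit of the PLK1 and BORA regions held neither element. Below are 3 windows around the highest UNT summit (hg38, plus strand), shown because PKN2 had the largest difference of all regions, the region near ANKRD10 was called in all 8 UNT libraries, and the UBLCP1 window holds a match to the AP-1 motif TGANTCA. They lie at chr1:88683614-88683714, chr13:110963535-110963635 and chr5:159262690-159262790. Capitals again mark motif matches, in UBLCP1 a CCAAT box on the minus strand and then the AP-1 match.
PKN2: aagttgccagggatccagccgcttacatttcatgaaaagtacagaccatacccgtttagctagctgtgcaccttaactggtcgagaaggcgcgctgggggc
ANKRD10: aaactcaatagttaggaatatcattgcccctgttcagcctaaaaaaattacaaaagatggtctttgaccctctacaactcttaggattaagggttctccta
UBLCP1: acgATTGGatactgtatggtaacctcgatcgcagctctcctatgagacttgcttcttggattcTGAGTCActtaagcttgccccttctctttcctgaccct
No searched motif was found in the windows of PKN2 and ANKRD10, which says only that these letters are not in those bases.

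Lists of the 16 libraries held between 1752 and 27927 peaks. The background pileup that the deposited fold enrichment and p-value imply, an index of depth, was lowest at 1.02 reads (KO esiHDAC4 UNT, replicate B of that group) and highest at 3.07 reads (WT esiCT UNT, also replicate B), so a missing peak in a shallow list means not detected at that depth. Depth did not split by treatment, with medians of 1.80 reads in UNT and 2.12 reads in OXPT libraries, while the KO UNT libraries (1.02 to 2.26) were shallower in the median than the WT UNT libraries (1.65 to 3.07). Of 13 markers of colorectal epithelium, 9 had a start-site peak in 8 or more libraries. A peak stood in 15 or 16 libraries at EPCAM, KRT8, KRT18 and KRT19, in 14 at CLDN7 and in 13 at CLDN4. It stood in 10 at CDX2 and ELF3, in 8 at CDH1, in 7 at CLDN3, in 1 at VIL1, and in 0 at LGR5 and CDX1. Of 11 markers of other cell types, 6 had no start-site peak in any library, COL1A1 had one in 11 and RBFOX3 in 6. A peak stood at the FBXW7 start site in 7 WT and 3 KO libraries and at the HDAC4 start site in 3 esiCT and 6 esiHDAC4 libraries. A peak at a start site checks neither the knockout nor the silencing.

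The 729 regions were called mainly in the UNT libraries of WT cells. In bulk libraries, fewer cells that carry the mark and less of it per cell cannot be told apart. Of them, WT esiCT UNT replicates A and B called 698 and 689, and WT esiHDAC4 UNT called 593 and 661. In KO cells, esiCT UNT called 366 and 153, and esiHDAC4 UNT called 550 and 23. Among OXPT libraries, WT esiCT called 163 and 16, WT esiHDAC4 76 and 71, KO esiCT 210 and 36, and KO esiHDAC4 79 and 10. The UNT and OXPT ranges overlapped through the replicates B of both KO UNT groups, which also had the shortest UNT lists. Relative to its own list length, every UNT library called more of them than every OXPT library, at 20.3 to 37.6 against 2.04 to 11.9 per 1000 merged regions called. KO esiHDAC4 UNT replicate B, with 23 called, thus had 20.3 per 1000, the lowest of the UNT libraries and above the highest OXPT value, 11.9 in KO esiCT OXPT replicate A.

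**Figure D1:**
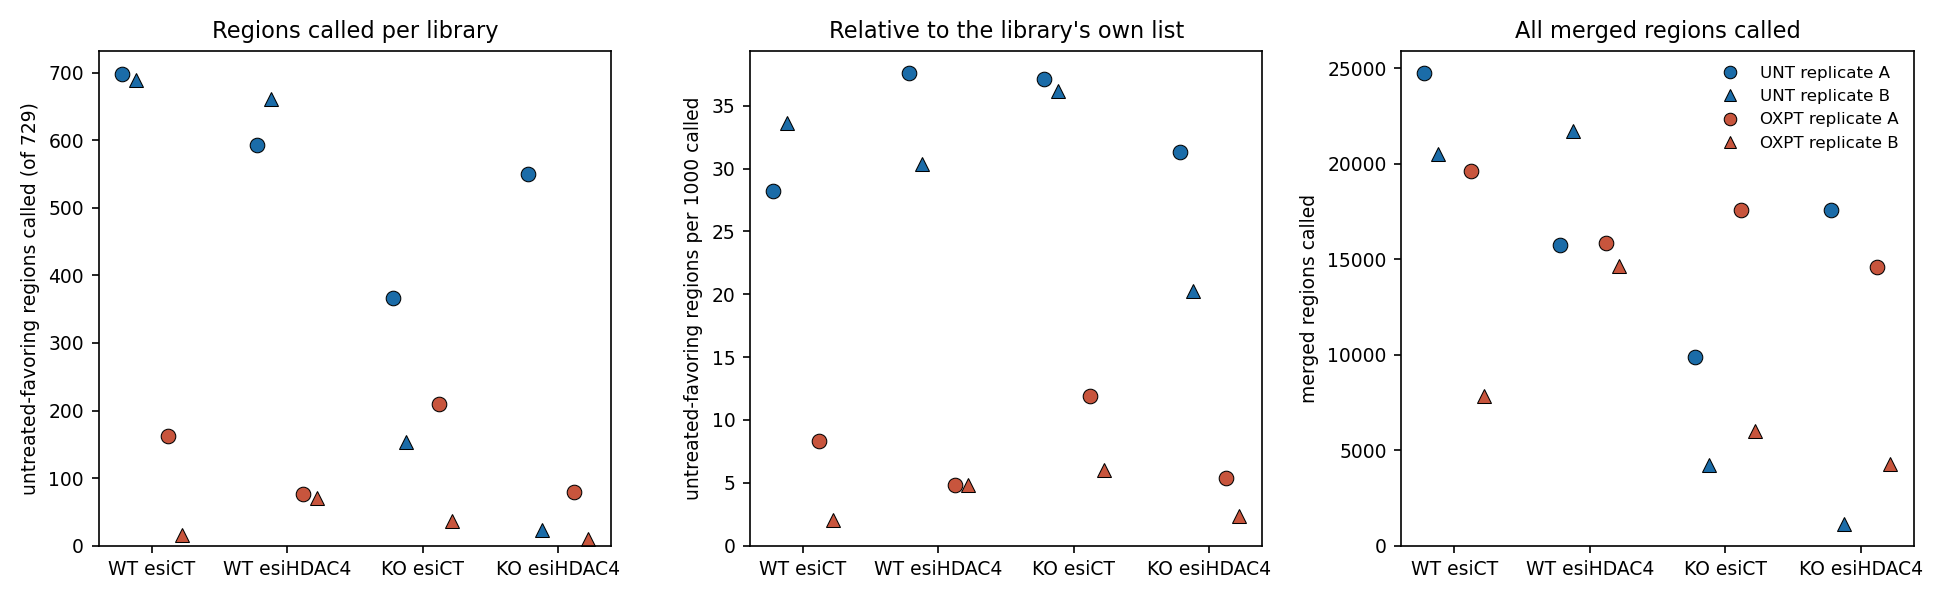
Untreated-favoring regions called in each library (left, number of 729), the same per 1000 merged regions of the library's list (middle) and all merged regions called (right), by genotype and esiRNA; circles are replicate A, triangles replicate B, blue UNT, red OXPT. UNT libraries range from 20.3 to 37.6 per 1000 and OXPT libraries from 2.04 to 11.9.

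By number of libraries, 594 regions differed by 4, 115 by 5, 19 by 6 and 1 by 7, while 1381 regions lay just outside the rule at a difference of 3. A peak was present in 4 UNT libraries for 220 regions, in 5 for 262, in 6 for 189, in 7 for 55 and in all 8 for 3. No OXPT library called 295 of the regions (40.5%). The regions just inside the rule with the highest mean UNT fold enrichment lay at BICD2 (5 UNT and 1 OXPT libraries), STK40 (7 and 3), PTCH1 (7 and 3) and ECT2 (7 and 3). Just outside lay regions at KIAA0232, BEGAIN, ELF3 and ABR, each in 7 UNT and 4 OXPT libraries. PTCH1 is the Hedgehog receptor and ELF3 an epithelial transcription factor. Median UNT fold enrichment was 4.57 to 6.28 in the 4 regions inside and 5.29 to 5.93 in the 4 outside the threshold.

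**Figure D2:**
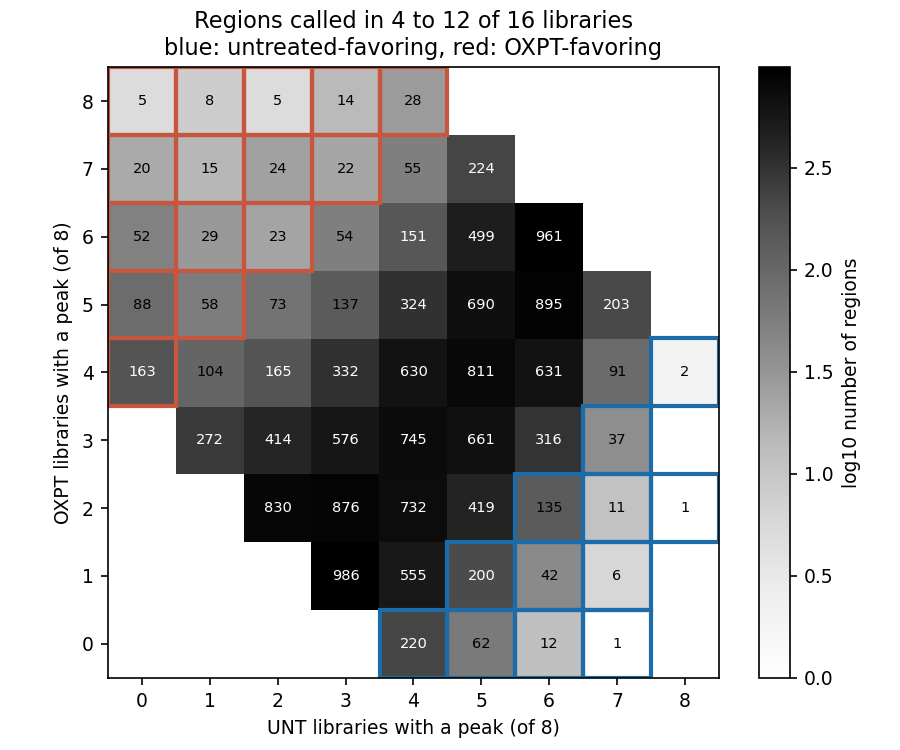
Eligible regions by the number of UNT (x axis) and OXPT (y axis) libraries with a peak; each cell prints its number of regions, and shading is log10 of it. Blue frames enclose the 729 untreated-favoring regions and red frames the 554 OXPT-favoring regions; the largest blue cell holds 220 regions called in 4 UNT and 0 OXPT libraries.

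The peaks were slightly lower than those of eligible regions in every UNT library but KO esiHDAC4 UNT replicate B (4.60 against 4.59). The median fold enrichment of called untreated-favoring regions in a UNT library was 3.79 to 4.60, against 4.0 to 4.74 for all eligible regions called in those libraries. Their median −log10 q was 2.4 to 5.36, against 2.58 to 6.49 for eligible regions, and was the lower value in every UNT library. Regions were narrower than the eligible ones, with a median merged width of 1115 bp (quartiles 808 and 1571), against 1320 bp for eligible and 1402 bp for OXPT-favoring regions. With only peaks of −log10 q of at least 10, the rule kept 179 regions.

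PKN2, a serine/threonine kinase, had the region with the largest difference, at chr1:88683213-88683995, 0.227 kb from the start site. Its fold enrichment in WT cells was 4.68 and 4.29 in esiCT UNT replicates A and B, and 4.69 and 4.90 in esiHDAC4 UNT. In KO cells it was 4.55 and 3.69 in esiCT UNT and 4.37 in esiHDAC4 UNT replicate A. KO esiHDAC4 UNT replicate B and all 8 OXPT libraries had no peak there.

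The region at PLK1 (chr16:23678908-23680355) began just downstream of the promoter shown above. It was enriched 5.28-fold and 5.01-fold in WT esiCT UNT replicates A and B, 4.96-fold and 4.97-fold in WT esiHDAC4 UNT, 5.41-fold in KO esiCT UNT replicate A and 4.63-fold in KO esiHDAC4 UNT replicate A. Both KO UNT replicates B and all OXPT libraries lacked a peak. At BORA (chr13:72727952-72728891) the same 6 libraries had peaks, of 6.18, 3.39, 4.03, 5.62, 4.87 and 5.38-fold in that order, and no other library did. The 2 UNT libraries that lacked both peaks had the shortest UNT lists, and the part of list length in their absence was not tested.

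Other regions with a difference of 6 lay at start sites of UBLCP1, a phosphatase of the proteasome, RAB18, a small GTPase of lipid droplets, STARD4, a sterol carrier, ADNP2, a zinc finger protein, and FAM174A. RAB18, STARD4 and UBLCP1 were each called in 7 UNT libraries and 1 OXPT library, and ADNP2 and FAM174A in 6 and 0. Away from start sites, the region 48.1 kb from ANKRD10 was called in 8 UNT and 2 OXPT libraries (median UNT fold 4.33), an intronic region of KLRC2, a natural killer cell receptor gene, in 7 and 1 (4.70), a region 22.5 kb from PKP1, a desmosome protein, in 7 and 1 (3.84), and a region 47.4 kb from BIRC3, an inhibitor of apoptosis in NF-κB signaling, in 6 and 0 (4.0). In all of these the 4 WT UNT libraries had a peak.

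**Figure D3:**
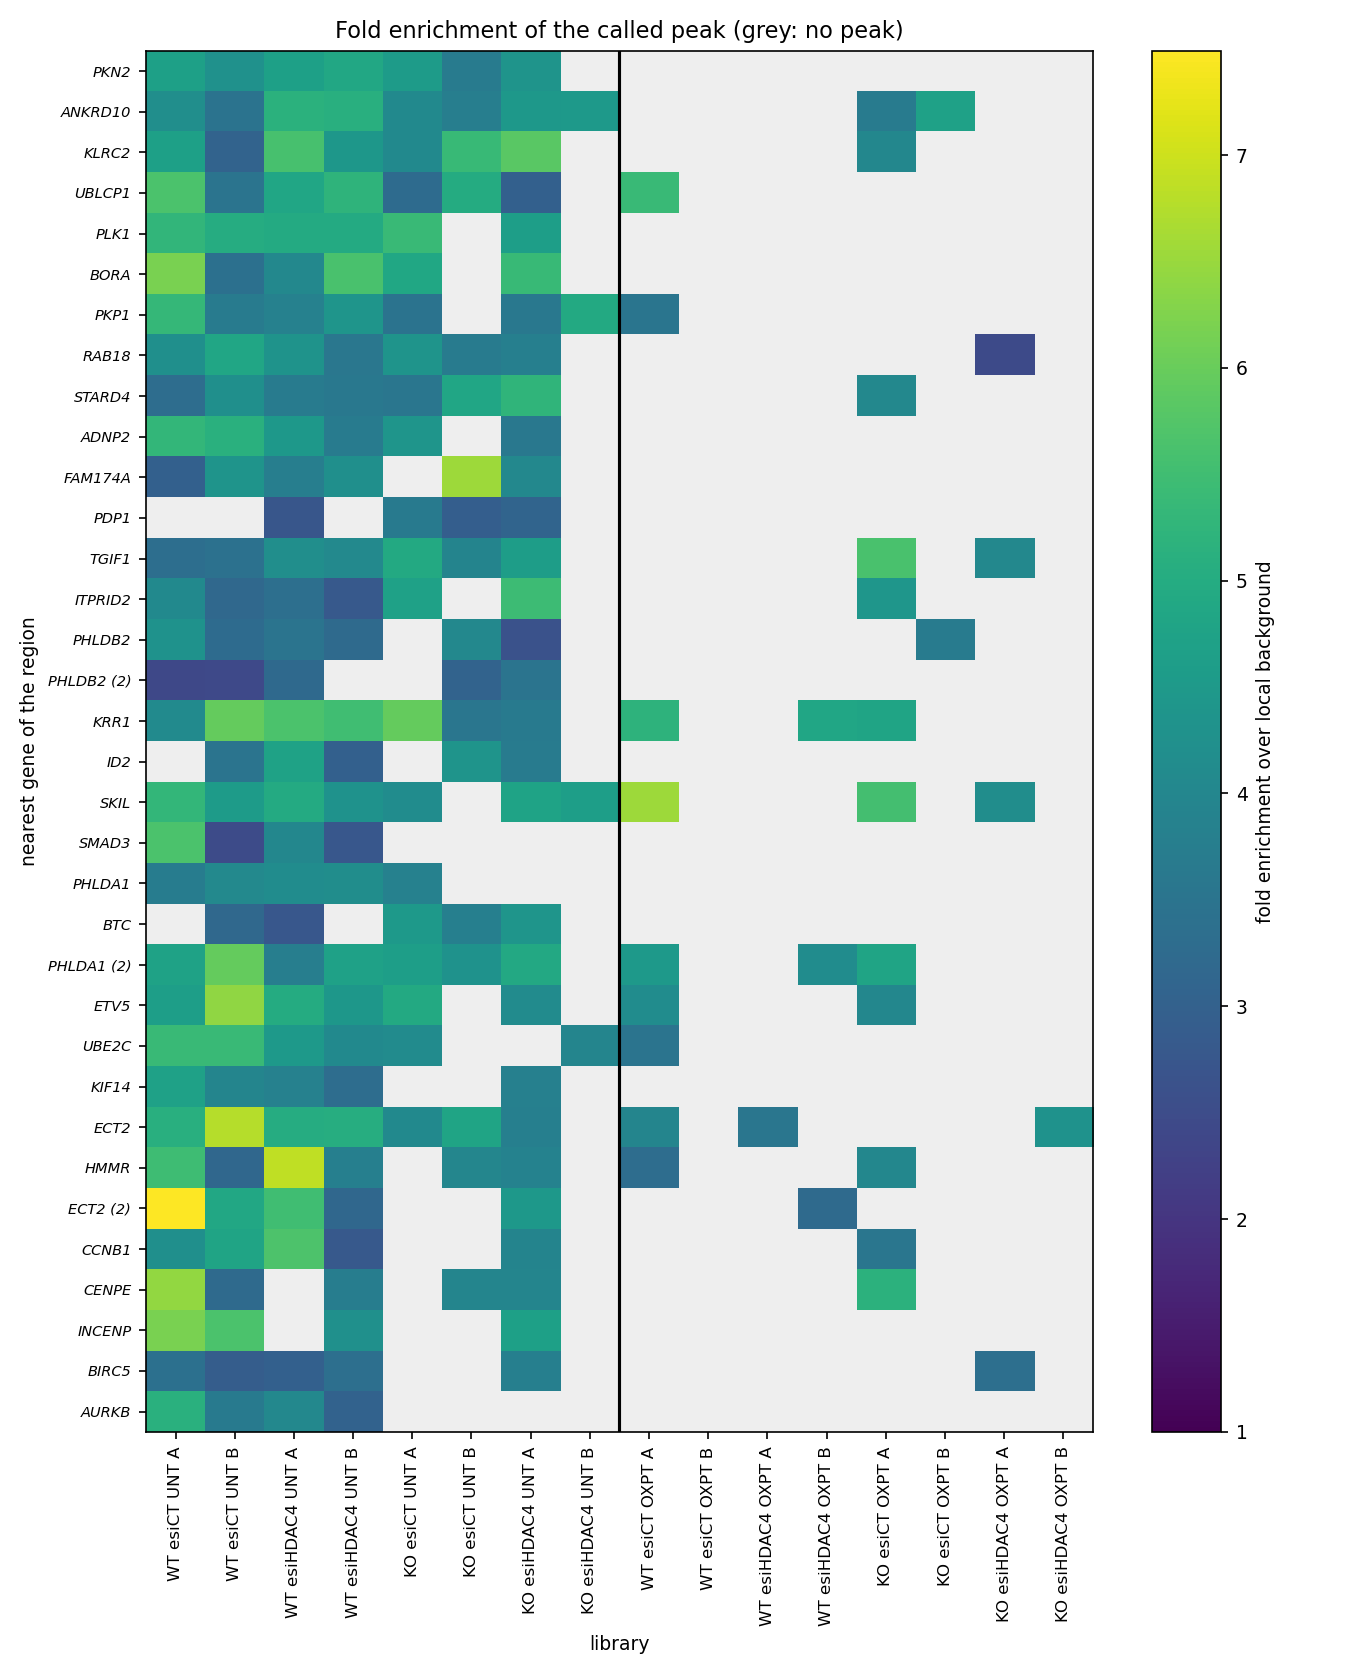
Fold enrichment over local background of the called peak in each library (columns, UNT left of the line, OXPT right) for 11 of the 12 regions with the largest differences, 6 regions in SEs, and regions of the TGF-beta and EGFR lists (up to 4 each, those not yet shown) and of the G2 and mitosis list (rows, by nearest gene; a number in parentheses marks a further region of that gene). Grey cells have no peak; WT UNT columns are filled in most rows, and values run up to 7.49 at ECT2.

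The share of untreated-favoring regions at promoters was nearer to that of eligible than to that of OXPT-favoring regions. Of the 729, 384 (52.7%) came within 1 kb of a protein-coding start site, against 57.5% of eligible and 9.57% of OXPT-favoring regions. The share was 59.4% to 65.3% at differences of 0 to 3 libraries, then 54.4% at 4, 43.5% at 5 and 52.6% at 6, and in the other direction 13.3% at -4 and 5.81% at -5. Within 2.5 kb it was 55.3%, 60.1% and 14.6% for the same 3 sets. The 52.7% moved to 67.2% with only peaks of fold enrichment of at least 4, and to 42.9% without KO esiHDAC4 UNT replicate A. By the position of the summit, 350 regions lay in an intron, 103 in an exon and 276 between genes, and those away from start sites had a median distance of 37.9 kb, against 26.5 kb for eligible regions. The nearest genes numbered 664, and of 7592 genes with an eligible region at a start site, 378 (4.98%) had an untreated-favoring region there.

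**Figure D4:**
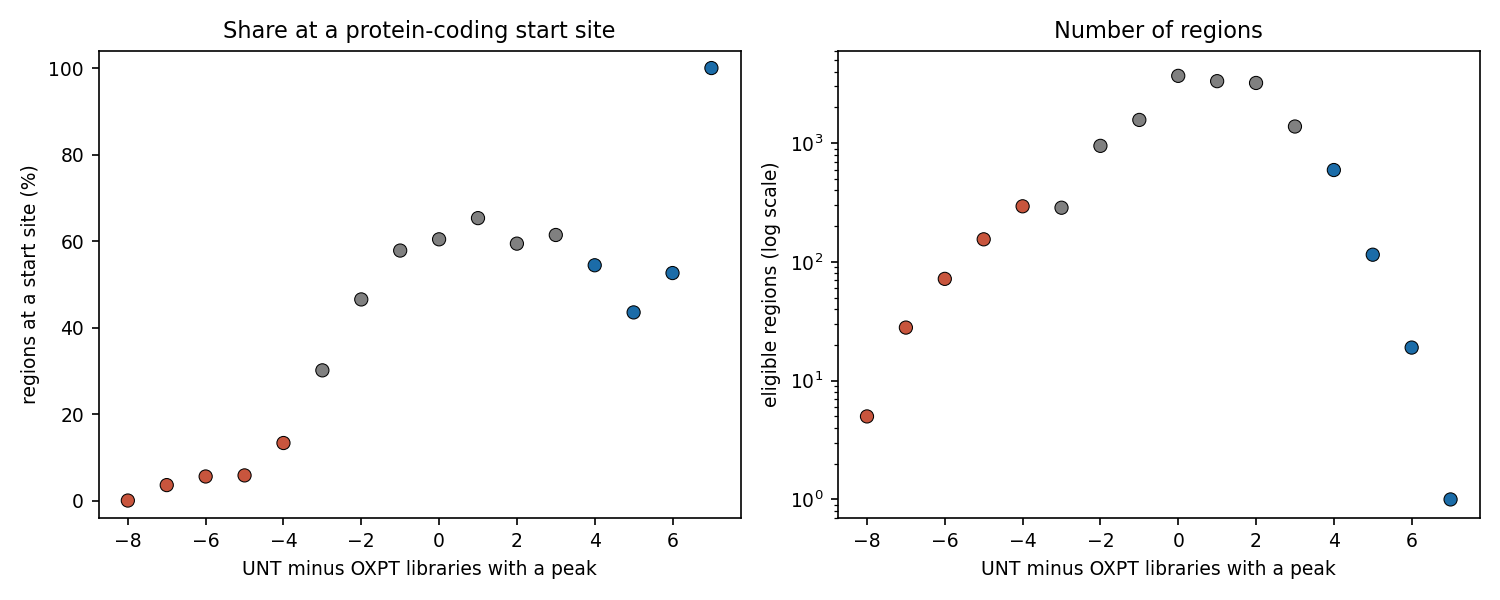
Share of eligible regions within 1 kb of a protein-coding start site (left, %) and number of eligible regions (right, log scale) against the number of UNT minus OXPT libraries with a peak; blue points meet the rule, red points meet it turned round, grey points meet neither. The share is 54.4% at a difference of 4 and 13.3% at -4; the point at 7 is 1 region.

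Start sites of G2 and mitosis genes recurred among the regions. A list of 40 such genes was added after PLK1, BORA and UBE2C had been seen, so it gives a description and no support. Of its 29 genes with an eligible region at a start site, 11 had an untreated-favoring region there (37.9%), beside 4.98% of all such genes. They were PLK1, BORA, UBE2C, the ubiquitin-conjugating enzyme of the anaphase-promoting complex, CCNB1 (cyclin B1), AURKB, INCENP and BIRC5, which form the chromosomal passenger complex, the kinesins CENPE and KIF14, ECT2, an exchange factor for cytokinesis, and HMMR, a spindle protein. The region at KIF14 was called in 5 UNT and 0 OXPT libraries, those at AURKB and INCENP in 4 and 0, and that at UBE2C in 6 and 1. ECT2 had 2 regions, in 7 and 3 and in 5 and 1 libraries. CDK1 was the gene of this list with an OXPT-favoring region nearest to it. All 4 WT UNT libraries had a peak at 9 of these 11 genes' regions, that is all but CENPE and INCENP, where WT esiHDAC4 UNT replicate A had none.

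Whether or not they had such a region, the 40 genes were counted in each library by a peak within 1 kb of a start site. In WT UNT libraries 39, 37, 31 and 37 genes had one, and in WT OXPT libraries 19, 10, 15 and 17, so the WT groups did not overlap. The 11 genes with an untreated-favoring region are among the 40, so the choice of regions fixed part of this gap. In KO cells the numbers were 14, 8, 27 and 2 in UNT and 26, 9, 20 and 5 in OXPT libraries, and these overlapped. Among all 19962 protein-coding genes, the WT UNT libraries had 8320 to 10977 with such a peak and the WT OXPT libraries 3354 to 9000. The list of cell cycle and replication genes had 23 to 28 of 30 genes in WT UNT and 4 to 23 in WT OXPT libraries, and 2 of its 19 genes nearest to an eligible region, CCNB1 and PLK1, were nearest to an untreated-favoring one (10.5%, beside 7.14% of all genes) and as many, CDK1 and PCNA, to an OXPT-favoring one.

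**Figure D5:**
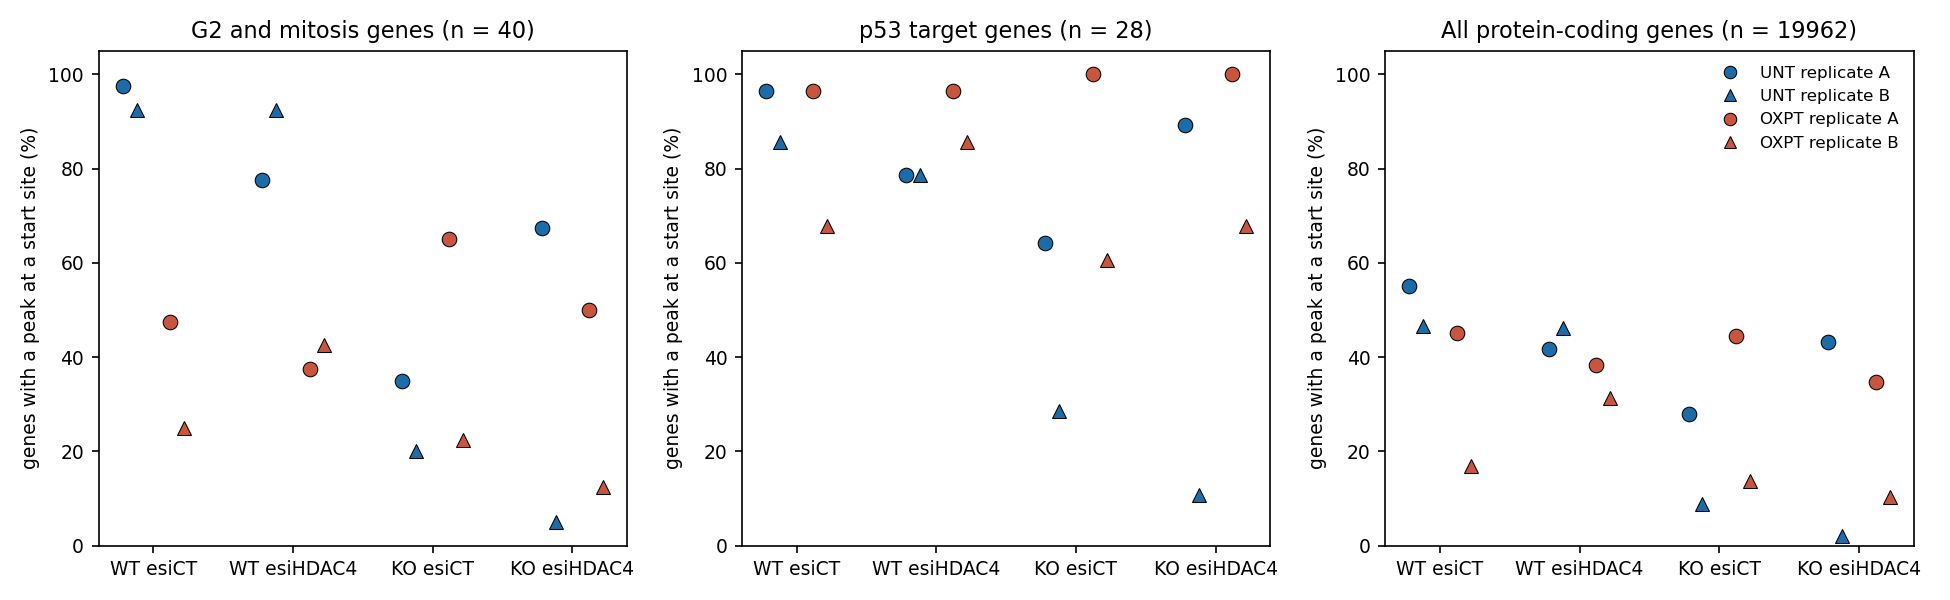
Percent of genes with a peak within 1 kb of a start site in each library, for 40 G2 and mitosis genes (left), 28 p53 target genes (middle) and all 19962 protein-coding genes (right); symbols as for the regions called per library. WT UNT libraries hold 77.5% to 97.5% of the G2 and mitosis genes and WT OXPT libraries 25% to 47.5%. The 40 genes include 11 with an untreated-favoring region.

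The CCAAT box and the CHR element were then searched in the 250 bases before each RefSeq start, for the 312 of 378 genes with a region at the start that matched a promoter. A CCAAT box was found in 39.4% of these promoters, in 35.3% of those with an eligible region and in 34.8% of all 15316 promoters. CHR was found in 10.3%, 7.77% and 10.8%, and both in 5.13%, 3.31% and 4.25%. Of the 9 matched G2 and mitosis genes with a region, 8 had a CCAAT box and 5 had both, and of the 34 matched genes of the whole list 17 (50.0%) had both. A match is a description of the letters and not of binding.

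Among p53 target genes, 0 of the 20 that were nearest to an eligible region had an untreated-favoring one, while 5 had an OXPT-favoring one, namely MDM2, SESN1, ZMAT3, PLK2 and TRIAP1. Over all genes nearest to an eligible region, 664 of 9305 (7.14%) had an untreated-favoring one and 519 of 9305 an OXPT-favoring one. Start sites of the 28 genes carried a peak in 22 to 27 genes in WT UNT and in 19 to 27 genes in WT OXPT libraries. The p53 motif, a repeated decamer searched by name on both strands around the summit, was present in 0 of 729 untreated-favoring, 11 of 554 OXPT-favoring (1.99%) and 13 of 15695 eligible regions (0.0828%). All 13 lay away from start sites.

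TGF-beta pathway genes had the largest share of members among the lists that were not added later. Of 22 genes nearest to an eligible region, 5 were nearest to an untreated-favoring one (22.7%), beside 7.14% of all genes. Of 18 with an eligible region at a start site, 2 had an untreated-favoring one there, beside 4.98% of all such genes. SMAD3 and SMAD4, the receptor-regulated and common mediators, had regions called in the 4 WT UNT libraries and in no other, in an intron 7.31 kb from a SMAD3 start (fold 2.48 to 5.64) and at a SMAD4 start (2.97 to 4.43). SKIL, a repressor of SMADs, had one at its start in 7 UNT and 3 OXPT libraries, and regions 178 kb from TGIF1, another SMAD corepressor, and 646 kb from ID2, an inhibitor of differentiation factors, were in 7 and 2 and in 5 and 0. Both lie far from the gene named, the first in an intron of DLGAP1, so the nearest gene need not be the target. An OXPT-favoring region was nearest to TGFBR2, SMAD7 and ID3.

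For the EGFR family and MAPK feedback, 4 of 20 genes (20%) were nearest to a region: BTC, an EGFR ligand, SPRY2, an inhibitor of receptor signaling, ETV5, a transcription factor downstream of ERK, and PHLDA1. ETV5 and SPRY2 each had one at a start site in 6 UNT and 2 OXPT libraries, and ETV5 had another there in 4 and 0. PHLDA1 was nearest to 3 regions, at 181, 238 and 258 kb. Of the WNT list 2 of 13 genes had one, ZNRF3, which removes WNT receptors (5 UNT and 1 OXPT libraries), and CD44, an adhesion receptor (5 and 1). FOS (1 of 14 AP-1 and ATF genes) had 2 regions, at its start and 14.2 kb away, both in 6 and 2 libraries. Single or paired genes of the other lists were WWTR1, the YAP paralog also called TAZ (1 of 18), HES1 and KLF5 (2 of 18 epithelial transcription factors), ITGA3 and ITGB6, integrins (2 of 26), HDAC4 (1 of 9 class IIa HDAC and MEF2 genes) and BIRC3 (1 of 11 NF-κB targets), which was also nearest to an OXPT-favoring region. The HDAC4 region lay in an intron 57.7 kb from a start site and was called in 6 UNT and 2 OXPT libraries, with 3 esiCT and 3 esiHDAC4 UNT libraries among them.

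The genes with the most regions were EMB, RAD51B, SPATA31A6 and SRGAP2C with 4 each, of 29, 22, 20 and 42 eligible regions. RAD51B, a recombination repair gene, had all 4 in introns, in 4 to 7 UNT and 0 to 3 OXPT libraries. ARF6, a GTPase of membrane traffic, and ARID1B, a SWI/SNF subunit, had 3 regions each, of 6 and 5 eligible regions. SPATA31A6 and SRGAP2C were named only as the nearest gene: all 8 of their regions lay over 1 Mb from any protein-coding start. Of all untreated-favoring regions, 17 (2.33%) lay that far away, against 1.31% of eligible and 0.361% of OXPT-favoring regions. Among the 4 regions nearest to EMB, 2 had a median UNT fold of only 1.32 and 1.44, beside 4.55 at PKN2.

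Chromosome X held 16 untreated-favoring and 0 OXPT-favoring of 182 eligible regions. Chromosome 6 held 70 (8.06% of its eligible regions) and 25, and chromosome 18 held 17 (7.49%) and 11, while chromosome 19 had the lowest share, 2.66%.

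Windows around the summit had a median G+C content of 51.8% in untreated-favoring, 54.8% in eligible and 45.3% in OXPT-favoring regions. At start sites the median G+C content was 59.8%, 62.1% and 45.8% for the same sets, and elsewhere 44.9%, 47.2% and 45.2%. A GC box (GGGCGG) was present in 31.1%, 32.2% and 7.58% of untreated-favoring, eligible and OXPT-favoring regions, and in 12.8%, 12.7% and 6.99% of those away from start sites. The AP-1 motif TGANTCA was present in 6.58%, 6.20% and 7.40%, the TEAD motif GGAATG in 13.9%, 14.0% and 17.1%, and the GATA motif AGATAA in 11.4%, 10.9% and 19.1%. Away from start sites, the RUNX motif TGTGGTT was present in 8.41% of untreated-favoring, 4.89% of eligible and 5.19% of OXPT-favoring regions, and the FOX motif TGTTTAC in 6.67%, 4.27% and 3.79%. Over all regions of the same sets, these windows held a CCAAT box in 26.6%, 23.9% and 30.5%, and the CHR element in 21.0%, 17.2% and 24.9%. The motifs given here are a selection of those searched.

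Super-enhancers overlapped 178 of the 729 regions (24.4%), counting the SE list of any library, beside 20.7% of eligible and 22.9% of OXPT-favoring regions. SEs of UNT libraries overlapped 23.3% and SEs of OXPT libraries 13.2%. For eligible regions these shares were 18.0% and 14.2%, and for OXPT-favoring regions 7.22% and 21.8%. The study considered only SEs that also carried H3K4me1, and whether the deposited lists hold that filter was not stated. The region that overlapped an SE in the most UNT libraries lay in an intron of PDP1, a mitochondrial phosphatase, and overlapped an SE of all 16 libraries, while its own peak was called in 1 WT UNT and 3 KO UNT libraries. Next came a region in an intron of DLGAP1 (7 UNT and 2 OXPT SE lists), one 3.02 kb from ITPRID2 (7 and 2), 2 in introns of PHLDB2, which anchors microtubules at the cell cortex (7 and 5, and 7 and 6), and one 238 kb from KRR1 (7 and 4).

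Genotype was not used by the rule. Yet regions met it mainly through WT UNT libraries, whose lists held a median of 26334 peaks, against 9382 in KO UNT libraries. The genotype tests below are thus not independent of the choice of regions. The number of untreated-favoring regions called was lower in KO, though not beyond the spread of the libraries, and that of eligible regions was lower in KO beyond it. Whether these sets differed from each other in this was not tested. All 4 WT UNT libraries called 484 of the regions (66.4%), whereas KO UNT libraries called 93 regions in none, 264 in 1, 292 in 2, 76 in 3 and 4 in all 4. The mean log2 number called was 7.65 ± 2.05 in WT and 6.49 ± 2.02 in KO libraries (SD, n = 8), a difference of -1.16 (two-sided exact permutation test within letter and treatment, p = 0.0910). The difference was -0.15 in replicates A and -2.17 in replicates B, and within UNT it was -2.01 (p = 0.0556, the smallest this exact permutation test can give). For all eligible regions the difference was -1.76 (exact permutation p = 0.00463), and within UNT it was -2.71 (exact permutation p = 0.0556, again the smallest possible). Per 1000 merged regions of each list, KO and WT did not differ beyond their spread, with a log2 difference of 0.11 (exact permutation p = 0.691) that was opposite in sign.

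Region by region, 196 of the 729 (26.9%) were called in at least 4 more WT than KO libraries, beside 34.5% of eligible regions, and 0 in at least 4 more KO than WT libraries, beside 0.287%. The rule limits which patterns a region can have, so these shares are a description. In the exact conditional test stratified by letter and treatment over 20090 regions, 0 regions (0%) passed a Benjamini-Hochberg adjusted p of 0.05. Of the tested regions 10.1% (2027) had an unadjusted p under 0.05 toward WT and 0.0498% (10) toward KO, and 0 untreated-favoring regions did. No presence pattern that meets the rule can give a p below 0.0556 in this test, so that this 0 was fixed by the choice of regions and says nothing about genotype. At least 621 regions would have to switch completely between genotypes for 1 to pass. Among the widest gaps, 6 WT against 2 KO libraries, were those at KDM4B, a histone demethylase, TMPRSS13, a membrane protease, and a region far from ROCK1. The reverse was led by the region near ANKRD10 (4 WT and 6 KO libraries), TENT2, a poly(A) polymerase (5 and 7), ETS2, a transcription factor (4 and 6), and DDX17, an RNA helicase (3 and 5).

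Within each genotype the direction of the rule held in unequal measure, which the choice of regions fixes in part. All 729 were called in more WT UNT than WT OXPT libraries. In KO cells 557 (76.4%) were called in more UNT than OXPT libraries, 172 in as many and 0 in fewer. That 0 was fixed by the rule, since 4 libraries per genotype and treatment leave no such region. By background, 719 (98.6%) favored UNT in WT esiCT, 703 (96.4%) in WT esiHDAC4, 281 (38.5%) in KO esiCT and 477 (65.4%) in KO esiHDAC4. Of eligible regions 65.0%, 41.4%, 7.91% and 23.2% did so, in the same order. In KO esiCT 33 (4.53%) favored OXPT, beside 45.4% of eligible regions, and its OXPT replicate A had the longer list of 21875 peaks against 12639 in UNT replicate A.

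Silencing of HDAC4 was likewise not used by the rule. Mean log2 numbers called were 7.36 ± 1.93 in esiCT and 6.78 ± 2.27 in esiHDAC4 libraries (SD, n = 8), a difference of -0.58 (exact permutation p = 0.437), and per 1000 regions of the list the difference was -0.36 (exact permutation p = 0.188). At least 4 more esiCT than esiHDAC4 libraries called 9 of the 729 (1.23%, beside 1.54% of eligible regions), and 0 the reverse (beside 0.389%). Of all tested regions 0.134% (27) had an unadjusted p under 0.05 toward esiCT and 0.0299% (6) toward esiHDAC4, while untreated-favoring regions could not, for the reason given for genotype, and 0 of all regions passed the exact conditional test after adjustment by Benjamini-Hochberg. STK40, a kinase gene, RAD51B and STN1, a telomere protein, led toward esiCT, and MRPS22, a mitochondrial ribosome protein, THOC7, an mRNA export factor, and TMPRSS13 led toward esiHDAC4.

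Among the regions a library called, those inside the library's own SEs made up 16.21 ± 6.07% in esiCT and 9.64 ± 5.39% in esiHDAC4 libraries (SD, n = 8), a difference of -6.58 percentage points (exact permutation p = 0.0448). Over the 4 tests of this kind, on the number called and on SEs for genotype and for esiRNA, the Benjamini-Hochberg adjusted p of this exact permutation test was 0.179. The difference was -3.33 points in replicates A (exact permutation p = 0.50) and -9.82 in replicates B (exact permutation p = 0.111), and -2.61 for eligible regions (exact permutation p = 0.241). Several shares rest on few regions, such as 3 of 16 in WT esiCT OXPT replicate B and 1 of 10 in KO esiHDAC4 OXPT replicate B, and 0 of 23 in KO esiHDAC4 UNT replicate B allows up to 13% by counting error. For KO against WT the difference was -1.67 points (exact permutation p = 0.644). It was -8.53 points within UNT (8.45% in KO and 16.98% in WT, n = 4, p = 0.0556, the smallest this exact permutation test can give) and 5.20 points within OXPT (exact permutation p = 0.333), and the sign over all libraries turned when any of 7 of the 16 libraries was left out. For eligible regions the difference within UNT was -6.99 points (5.18% in KO and 12.18% in WT, n = 4, exact permutation p = 0.0556). Whether these sets differed from each other in this was not tested.

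Regions were also chosen in the libraries of 1 letter, at least 2 more of 4 UNT than of 4 OXPT libraries, and read in the other letter, which the choice did not use. Replicates A gave 2669 regions. In replicates B, WT UNT libraries called 1570 and 1487 of them (esiCT, esiHDAC4) and WT OXPT libraries 321 and 693, while KO UNT libraries called 187 and 23 and KO OXPT libraries 265 and 103. The log2 difference OXPT minus UNT over all 8 libraries was -0.19 (exact permutation p = 0.886), and -0.30 per 1000 regions of the list (p = 0.600). The 4558 regions chosen in replicates B gave -0.10 in replicates A (exact permutation p = 0.857) and -0.16 per 1000 (p = 0.143). A lower number under OXPT was thus not detected over the 8 libraries outside either choice. These tests exchanged treatment over all 8 libraries of the letter (70 arrangements), with no pairing by genotype and esiRNA. Numbers in replicates B differed widely between genotypes, which widens the spread in that letter, and a paired test was not run. The opposite choice, more OXPT than UNT, gave 1.14 (chosen in A) and 0.68 (chosen in B) per 1000 in the other letter, each at the smallest p this exact permutation test can reach (0.0286), adjusted to 0.0763 over the 8 tests of this kind. In numbers called it gave 1.23 for the choice in A (exact permutation p = 0.486) and 0.73 for that in B (exact permutation p = 0.0286, adjusted 0.0763).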

How the data were processed

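H3K27ac ChIP-seq was made from 16 libraries of HCT-116 cells in 8 groups of 2 (replicates A and B). 4 input samples were not analysed here. According to the methods, the authors used Trimmomatic 0.39 for trimming and Bowtie2 2.4.4 for alignment (hg38), removed duplicates with SAMtools 1.18, called peaks per library with MACS2 2.2.7.1 and called SEs with ROSE (versions per the submitters' processing notes). The deposited peak lists give a score, a fold enrichment ratio over local background, and −log10 p and −log10 q values for each peak. The deposited SE lists give positions only, with no depth or counts.

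From these, 271549 peaks were merged by 1 bp overlap, and 534 peaks on other contigs were left out. A start site was a GENCODE 44 protein-coding start within 1 kb of the region. The background pileup of each library was solved from the deposited fold enrichment and p-value. Motifs were searched on both strands in 301 bases around the highest summit, and promoters were RefSeq sequences of GRCh38.p14.

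Libraries were compared with two-sided exact permutation tests within letter and treatment (1296 arrangements, smallest p 0.00154), which keeps the letter as a block, as the study's design has it. Tests of treatment in the other letter exchanged its 8 libraries with no block (70 arrangements, smallest p 0.0286). Presence per region was tested with an exact conditional test, adjusted after Benjamini-Hochberg over 20090 regions called in 3 to 13 libraries. The permutation test within letter and treatment and the conditional test were tested on simulated data. The letters were not shown to pair the libraries: the correlation of A minus B presence between groups was -0.01 to 0.23 over 28 pairs of groups, with 14 over 0.1.

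Named regions were the 12 with the largest difference, 8 at start sites, 6 in SEs, 4 or 3 with the largest genotype or esiRNA difference each way, those of the 6 genes with most regions, up to 4 per gene list, and 4 on each side of the threshold. Further ones in the text were named after their values were seen. 2 of the regions under this rule are not reported here. The regions and lists were chosen with earlier results of these data known. Tools were Python 3.11.15, NumPy 2.4.6, SciPy 1.17.1 and matplotlib 3.10.9. Intervals and limits cover counting error only.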

Additional observations from a re-analysis of the deposited data

Results flagged for a closer look

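KO esiHDAC4 UNT replicate B stood apart from the other 7 UNT libraries in the log2 number of untreated-favoring regions called, where its gap to the nearest library was 0.555 of the range, and in the number per 1000 merged regions, where it was 0.532 (both above Dixon's 95% critical value for 8 libraries). Its list was the shortest, with 1752 peaks and a background of 1.02 reads. The UNT and the OXPT libraries were each examined on several measures, 6 checks in all, and chance flags about 1 in 20 such checks. Both flags are of this library on related measures, so they are not independent.

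For regions chosen in replicates A and read in replicates B, both WT pairs had fewer regions under OXPT and both KO pairs more, with a mean log2 OXPT minus UNT of -1.69 in WT and 1.31 in KO. Per 1000 merged regions the means were -0.72 and 0.12, where the KO esiCT pair was nearly level (44.2 in UNT and 44.3 in OXPT) and the KO esiHDAC4 pair had 20.3 and 24.1. For regions chosen in replicates B and read in replicates A, the split did not recur: the log2 OXPT minus UNT was -0.54 in WT esiCT, -0.33 in WT esiHDAC4, 0.97 in KO esiCT and -0.52 in KO esiHDAC4. The difference between genotypes was not tested.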

How the results depend on the processing

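The number of untreated-favoring regions was 179 with −log10 q of at least 10, 135 with at least 5 more UNT libraries, 2828 in replicates A only and 5505 in replicates B only, where the rule asks for fewer libraries. Leaving out 1 library gave 170 (without WT esiCT UNT replicate B) to 798 (without KO esiHDAC4 UNT replicate B), with moves of over 1.5 times for 10 of the 16: 170 to 260 without 1 of the 4 WT UNT libraries, 461 and 303 without KO esiCT or KO esiHDAC4 UNT replicate A, 393 without WT esiCT OXPT replicate B, 405 without KO esiCT OXPT replicate B, and 458 and 364 without KO esiHDAC4 OXPT replicate A or B. The share at start sites moved under 5 of 8 alternatives (45.2% to 67.2%) and without 8 of 16 libraries (42.9% to 47.8%). The KO minus WT difference in log2 regions called was -1.28 (exact permutation p = 0.0494) with peaks within 500 bp merged, -2.21 (exact permutation p = 0.0386) with peaks covering 50% of a region, 0.11 per 1000 regions of the list, and -1.69 to -0.15 without 1 library (exact permutation p 0.0340 to 0.566). That for esiHDAC4 minus esiCT was -1.31 to -0.26 without 1 library.

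The SE share, KO minus WT, was 6.43 points with −log10 q of at least 10, 3.82 with at least 5 more UNT libraries, and -4.46 to 6.50 without 1 library. The esiHDAC4 minus esiCT SE share had an exact permutation p under 0.05 only before adjustment. That unadjusted p was no longer under 0.05 with −log10 q of at least 10 (-11.98), fold of at least 4 (-4.48), 500 bp merging (-5.01), 50% cover (-9.52), at least 5 more UNT libraries (-8.22), replicates A only (-0.88) and replicates B only (-7.38). Nor was it without any of 12 of 16 libraries (-16.05 to -4.66, exact permutation p 0.0556 to 0.463). Other-letter differences ran from -1.44 to 0.54 and from -0.38 to 0.12 without 1 library. The cause of these changes was not tested. Without the replicate block the differences of -1.16, -1.67, -0.58 and -6.58 stayed as they were by construction, and no unadjusted exact permutation p crossed 0.05. The number of regions past the adjusted threshold was 0 under every alternative run, in a test where at least 621 complete switches are needed. Short lists limit the depth at which an absent peak can be read.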
